A study of Mus musculus with 4 samples.

Results

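The Reprimo genes Rprm and Rprml were followed together with Trp53, the gene for the tumour suppressor p53, and 7 genes that p53 induces after damage, in the injured mouse hippocampus. The 10 genes were taken by their symbols (Rprml, Rprm, Trp53, Cdkn1a, Mdm2, Ccng1, Sesn1, Bbc3, Trp53inp1 and Plk2), and all 10 were present among the 22609 genes counted. The PELP1 FBKO mice were forebrain knockouts of PELP1, an estrogen receptor co-regulator, and their controls were FLOXED mice. Each genotype had 2 RNA-seq libraries from the hippocampus of C57BL/6 animals. In both genotypes the animals were ovariectomized, carried estradiol (E2) mini pumps, and were subjected to GCI (global cerebral ischemia, in which the blood supply of the brain is interrupted for a time) with 24 h of reperfusion. The sources used here do not give the age of the animals, the Cre driver or the number of animals behind a library. The spread between libraries of a genotype may therefore be technical, and p-values measure no more than that spread. Since no library came from uninjured or untreated animals, the effects of ischemia and of estradiol on these genes cannot be told apart from their resting levels.

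The set was chosen with the genotype difference of these same libraries known. Rprml had stood out as one of the genes lower in PELP1 FBKO, and the others were set beside it for their ties to p53. The genotype differences of the 10 genes are therefore given as a description, without a test of their own.

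p53 is a transcription factor that is held at a low level by the ubiquitin ligase Mdm2 and is stabilised when DNA is damaged. It then switches on genes for cell cycle arrest, for repair and metabolism, or for apoptosis, and in neurons after ischemia it is known as a promoter of cell death. Reprimo was found as a p53-induced gene whose glycosylated product can stop proliferating cells at the G2 phase of the cycle, and reprimo-like (Rprml) is its paralog. Most of the other genes also answer to signals that do not pass through p53, so a level of one of them is not a readout of p53 activity.

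Between 17524594 and 22447658 reads per library were assigned to genes, and levels are given as CPM, read counts scaled to library size with the TMM correction for library composition. Pelp1, the targeted gene, had 17.9 and 17.3 CPM in PELP1 FBKO, against 26.7 and 26.2 CPM in FLOXED. Both knockout libraries were lower. Counts cover the whole gene, and the sources used here do not name the deleted part. The forebrain excitatory markers Slc17a7 and Camk2a and the hippocampal field markers Prox1 and Fibcd1 were present in each library.

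None of the 10 genes passed an adjusted p of 0.05 in edgeR's quasi-likelihood test over 14978 genes, in which 0 genes (0%) passed and the smallest adjusted p was 0.0501. At an unadjusted p under 0.05 there were 3 of the 10, namely Rprml, Ccng1 and Plk2, where 15.6% of all tested genes met that threshold. DESeq2 called Rprml and Plk2 lower, 2 of the 10, against 3.09% of all genes it tested (2.20% higher and 0.895% lower), and limma-voom called 0 genes in the whole table. The genotypes did not overlap in 5 of the 10 (Rprml, Rprm, Ccng1 and Plk2 lower, Sesn1 higher), where 48.4% of all tested genes did not overlap (25.4% higher and 23.0% lower). Since the set was chosen on this contrast, these counts describe the set and are not evidence about it.

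**Figure D1:**
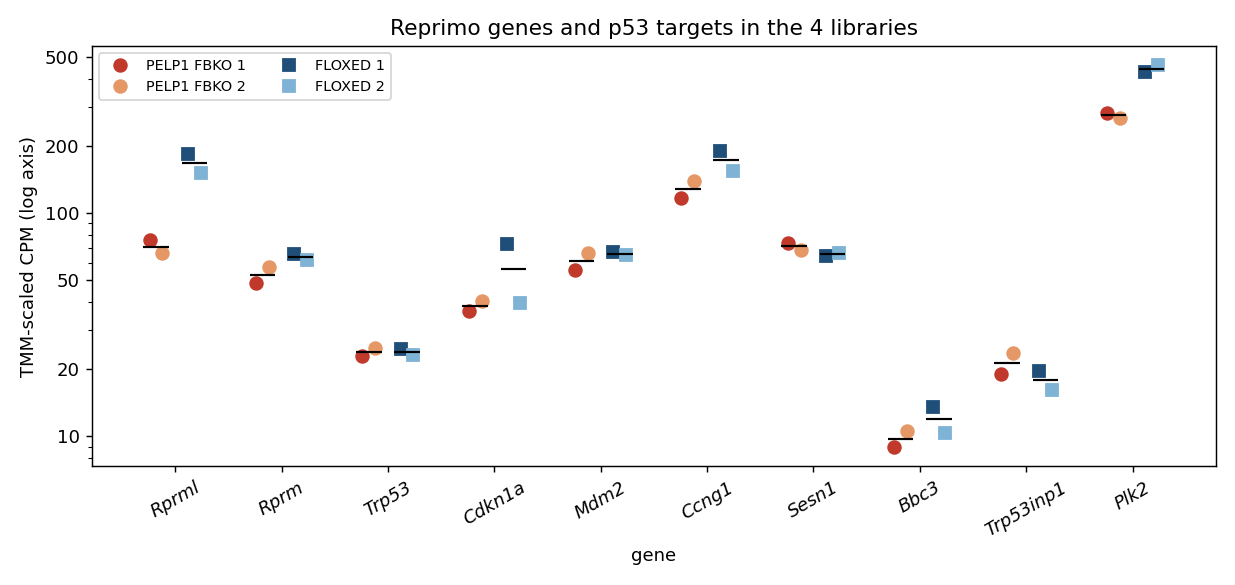
TMM-scaled CPM (log axis) of the 10 genes in the 4 libraries, with circles for PELP1 FBKO, squares for FLOXED and a black line at each genotype's mean (n = 2 each). Rprml lay between 66.0 and 75.5 CPM in PELP1 FBKO and between 151 and 184 CPM in FLOXED, while Trp53 lay between 22.8 and 24.9 CPM in all 4 libraries.

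Rprml, the reprimo-like gene on chromosome 11, was the member with the largest genotype difference. It had 75.5 and 66.0 CPM in PELP1 FBKO, against 184 and 151 CPM in FLOXED, from 1665 and 1348 reads in PELP1 FBKO against 3222 and 3273 reads in FLOXED. Both knockout libraries lay well below both FLOXED libraries, and the smallest gap between genotypes, 1.00 on the log2 scale, was wider than the gaps within PELP1 FBKO (0.19) and within FLOXED (0.28). The log2 fold change, PELP1 FBKO minus FLOXED, was -1.24 (SE 0.15), a level 42.3% of that in FLOXED. Only 0.754% of tested genes had a lower log2 fold change. Leaving out each library in turn kept it between -1.39 and -1.09.

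Rprm, Reprimo itself, on chromosome 2, differed by far less. It had 48.9 and 57.3 CPM in PELP1 FBKO and 65.4 and 61.9 CPM in FLOXED. The genotypes did not overlap, but the gap between them was 0.11 on the log2 scale, under the 0.23 by which the knockout libraries differed from each other. Its log2 fold change was -0.26 (SE 0.14), and it was -0.17 without PELP1 FBKO 1. Per kilobase of exon in GENCODE vM21, Rprml stood at 2.23 and 1.67 times the level of Rprm in PELP1 FBKO, and at 4.06 and 3.53 times in FLOXED. Rprml thus had the higher level per length in each library, by a smaller margin in the knockouts.

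Both genes are annotated as 1 exon block, of 1010 bases for Rprml and 1460 bases for Rprm, and none of their 50-base stretches, the read length, occurred in a transcript of another gene. Their RefSeq promoters (GRCm38.p6, 250 bases before to 50 after the start) follow. GC boxes (GGGCGG on either strand) and AP-1 motifs (TGANTCA) are in capitals. The Rprml window covers chr11:103649259-103649558 on the plus strand and the Rprm window chr2:54085503-54085802 on the minus strand.
Rprml: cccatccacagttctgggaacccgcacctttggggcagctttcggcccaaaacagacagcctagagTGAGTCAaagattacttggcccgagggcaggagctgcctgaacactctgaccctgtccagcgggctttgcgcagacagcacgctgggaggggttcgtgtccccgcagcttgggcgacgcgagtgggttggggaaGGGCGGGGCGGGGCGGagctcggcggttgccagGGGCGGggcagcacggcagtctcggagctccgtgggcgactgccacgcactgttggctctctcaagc
Rprm: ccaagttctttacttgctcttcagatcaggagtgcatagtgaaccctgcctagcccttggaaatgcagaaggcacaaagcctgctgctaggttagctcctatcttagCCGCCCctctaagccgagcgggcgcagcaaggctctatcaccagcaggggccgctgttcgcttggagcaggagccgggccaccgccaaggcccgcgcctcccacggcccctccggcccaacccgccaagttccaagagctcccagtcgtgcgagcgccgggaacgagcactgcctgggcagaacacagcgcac
The Rprml window held 4 GC boxes within 50 bases before the start, the first 3 of which overlap, and 1 AP-1 motif 184 bases before it. The Rprm window held 1 GC box and no AP-1 motif. Windows of Cdkn1a, Mdm2, Sesn1, Bbc3 and Plk2 also held GC boxes, several in each window of Sesn1 and Bbc3. GC boxes occurred in 35.7% and AP-1 motifs in 7.81% of all 32851 mouse promoter windows of this length. Any part of these motifs in the genotype differences was not tested. No match to the p53 consensus decamer was found in either window, which says only that these letters are absent there.

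The genes whose pattern over the 4 libraries was closest to that of Rprml were Arc, Tesc, Car7, Cebpb and Rem2. Likeness was measured as the root mean square (RMS) difference of log2 CPM after centring each gene, among 9680 other genes with a mean of at least 10 CPM. Arc, an activity-induced gene of dendrites and synapses, was nearest, at an RMS of 0.14 against a median of 0.63 for all genes compared. Arc had 125 and 125 CPM in PELP1 FBKO, against 276 and 228 CPM in FLOXED. Tesc, the gene for the calcium-binding protein tescalcin, followed at 0.15 with 31.0 and 28.9 CPM in PELP1 FBKO against 73.0 and 50.0 CPM in FLOXED. Among the other members Plk2 was the nearest to Rprml, with an RMS of 0.31, and 39 of the genes compared were nearer still.
For Rprm the nearest genes were Pigf, Dtwd1, Adck4, Tubb2b and Zfp386, with RMS differences between 0.010 and 0.015, and their log2 fold changes lay between -0.28 and -0.26. The median RMS to Rprm over all genes compared was 0.20.

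**Figure D2:**
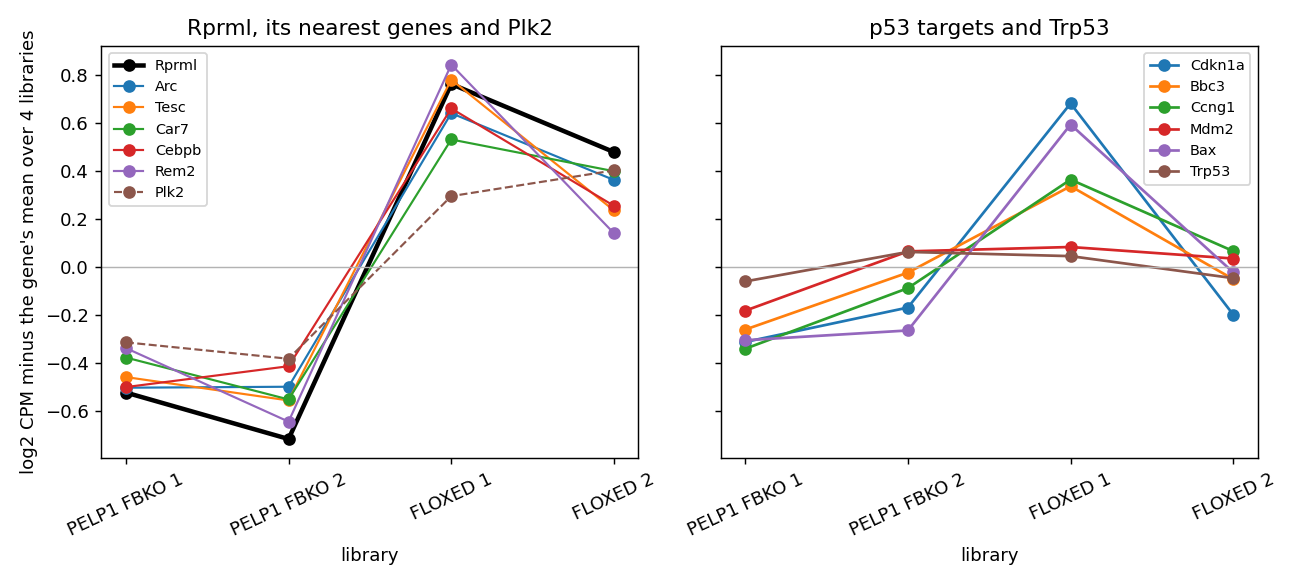
Log2 CPM minus each gene's mean over the 4 libraries (vertical axis), by library (horizontal axis). On the left Rprml (black), its 5 nearest genes and Plk2 (dashed) are below their means in both PELP1 FBKO libraries and above them in both FLOXED libraries, while on the right Cdkn1a, Bbc3 and Bax stand highest in FLOXED 1.

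Trp53, which encodes p53, was level between the genotypes. It had 22.8 and 24.9 CPM in PELP1 FBKO and 24.6 and 23.1 CPM in FLOXED, so the genotypes overlapped. The log2 fold change was 0.0028 (SE 0.15). The share of its 50-base stretches found in other genes' transcripts was 3.95%, and reads from those are uncertain. Mdm2, the ligase that degrades p53 and is itself induced by it, had 55.7 and 66.1 CPM in PELP1 FBKO and 67.0 and 64.8 CPM in FLOXED. The knockout library 1 was below the rest and the other 3 were close together, with a log2 fold change of -0.11 (SE 0.14).

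Cdkn1a encodes p21, the cyclin-dependent kinase inhibitor that carries p53-induced arrest. It had 36.6 and 40.4 CPM in PELP1 FBKO, against 72.9 and 39.6 CPM in FLOXED. FLOXED 1 stood alone, and FLOXED 2 lay between the knockout libraries. The log2 fold change was -0.54 (SE 0.26), and without FLOXED 1 it was -0.041, so the difference rested on that library. In GENCODE vM21 the gene shares 273 exon bases with an unnamed model on the opposite strand, so part of its counts is uncertain where strand was not used. Apart from strand, 8.49% of its 50-base stretches occur in other genes' transcripts, and reads from those are uncertain.

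Of the RefSeq promoter windows of Cdkn1a, the upstream one, chr17:29090729-29091028 on the plus strand, is shown because it holds a pair of p53 decamers, the building block of a p53 binding site, given in capitals.
Cdkn1a: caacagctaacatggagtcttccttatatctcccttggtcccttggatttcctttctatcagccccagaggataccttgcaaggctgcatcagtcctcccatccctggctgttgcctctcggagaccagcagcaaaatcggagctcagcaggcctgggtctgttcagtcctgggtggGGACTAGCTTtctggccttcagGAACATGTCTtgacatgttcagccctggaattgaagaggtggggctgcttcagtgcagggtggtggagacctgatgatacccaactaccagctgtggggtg
The decamers begin 73 and 51 bases before the start that belongs to this upstream window. The downstream Cdkn1a window, chr17:29093519-29093818 on the plus strand, held no exact match to the decamer. A pair with a spacer of at most 13 bases was found in 24 (0.0731%) of the 32851 windows. Lone decamers, which occur in 8.36% of windows, were also found in Trp53, Mdm2, Ccng1 and the downstream window of Sesn1, shown with 10 bases on each side.
Trp53, chr11:69580274-69580303, plus strand: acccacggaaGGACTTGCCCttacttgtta
Mdm2, chr10:117710925-117710954, minus strand: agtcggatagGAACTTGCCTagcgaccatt
Ccng1, chr11:40755452-40755481, minus strand: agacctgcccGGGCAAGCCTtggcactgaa
Sesn1, chr10:41887256-41887285, plus strand: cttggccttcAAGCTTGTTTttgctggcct
Windows were matched for 9 of the 10 genes, all but Trp53inp1. A match is a run of letters, not proof of a site. Only exact matches to the decamer were marked. A near match, such as tgacatgttc directly after GAACATGTCT in Cdkn1a, stays in lower case. Of the genes with a match, Ccng1 was on the lower side in the knockouts and Sesn1 on the higher side without overlap, while Cdkn1a, Mdm2 and Trp53 overlapped between the genotypes.

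Ccng1 encodes cyclin G1, a p53 target that acts with protein phosphatase PP2A on Mdm2. It had 117 and 139 CPM in PELP1 FBKO, against 191 and 155 CPM in FLOXED. Both knockout libraries were lower, but the gap between the genotypes, 0.15 on the log2 scale, was under the gaps within PELP1 FBKO (0.25) and within FLOXED (0.30). Its log2 fold change was -0.43 (SE 0.16), and it was -0.28 without FLOXED 1.

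Sesn1 encodes sestrin 1, a stress protein that restrains the growth kinase complex mTORC1. It had 73.6 and 68.5 CPM in PELP1 FBKO, against 64.5 and 66.4 CPM in FLOXED. The knockout libraries were slightly higher without overlap, by a log2 fold change of 0.12 (SE 0.12). Trp53inp1, a p53-induced nuclear protein gene, also lay on the higher side, with 19.1 and 23.7 CPM in PELP1 FBKO and 19.6 and 16.1 CPM in FLOXED. Its genotypes overlapped, and the log2 fold change was 0.26 (SE 0.18).

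Bbc3, the gene for the pro-apoptotic BH3-only protein Puma, was the member with the fewest reads, between 198 and 238 per library. It had 8.97 and 10.6 CPM in PELP1 FBKO and 13.6 and 10.4 CPM in FLOXED. As for Cdkn1a, FLOXED 1 was above the other 3 libraries, and FLOXED 2 lay between the knockouts. The log2 fold change of -0.29 (SE 0.21) was -0.088 without FLOXED 1.

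Plk2 encodes polo-like kinase 2, a p53 target in dividing cells that neurons induce with synaptic activity and that weakens overactive synapses. It had the highest CPM of the set, 281 and 268 in PELP1 FBKO, against 428 and 461 in FLOXED. Both knockout libraries were lower, and the smallest gap between genotypes, 0.61 on the log2 scale, exceeded those within PELP1 FBKO (0.068) and within FLOXED (0.11). The log2 fold change was -0.70 (SE 0.14), a level 61.7% of that in FLOXED, and it stayed between -0.75 and -0.65 when each library was left out. Its paralog Plk5, which neurons and glia express, had 7.89 and 7.39 CPM in PELP1 FBKO, against 13.6 and 12.2 CPM in FLOXED, a log2 fold change of -0.75 (SE 0.18) that did not pass (edgeR adjusted p = 0.120). Plk3, another paralog, overlapped between genotypes at 0.043 (SE 0.19).

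The Plk2 promoter window, chr13:110394794-110395093 on the plus strand, is shown with cyclic AMP response element (CRE) motifs in capitals (TGACG on either strand), as the motif through which activity induces many neuronal genes.
Plk2: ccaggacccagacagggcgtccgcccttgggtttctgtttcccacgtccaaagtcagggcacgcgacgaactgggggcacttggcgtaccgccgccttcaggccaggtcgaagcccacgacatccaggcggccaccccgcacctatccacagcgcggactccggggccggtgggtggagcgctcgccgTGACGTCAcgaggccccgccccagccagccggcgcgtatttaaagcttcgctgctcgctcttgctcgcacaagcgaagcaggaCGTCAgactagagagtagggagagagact
Of the 3 matches, the first pair overlaps and forms the palindrome TGACGTCA 62 bases before the start. That palindrome was found in 1.79% and TGACG in 20.8% of all windows. TGACG on either strand also occurred in the Mdm2 window, the downstream window of Sesn1 and a window of Bbc3. The windows of Rprml, Rprm, Trp53, Cdkn1a and Ccng1 held none. Any part of these motifs in the genotype difference of Plk2 was not tested.

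Genes induced by neuronal activity were listed beside Plk2. Of 14 tested, 10 had a negative and 4 a positive log2 fold change, with a median of -0.27 where the median of all genes tested was 0.00015. At an unadjusted p under 0.05 there were 4 lower (Arc, Junb, Bdnf and Homer1) and 0 higher, against 5.55% of all genes lower and 10.1% higher. DESeq2 called Arc alone, as lower, against 0.895% of all genes lower, and edgeR called 0. The log2 fold change of Arc was -1.01 (SE 0.14, edgeR adjusted p = 0.0566). The immediate-early gene Junb had -0.47 (SE 0.13), and Bdnf, the neurotrophin gene, had -0.35 (SE 0.12). Egr1, Npas4, Nr4a1 and Fos, other early response genes, overlapped between the genotypes, with log2 fold changes between -0.29 and -0.055. Egr2 and Fosb also overlapped, at 0.37 (SE 0.39) and 0.078 (SE 0.30). Dusp1 and Ier2 were on the higher side without overlap, at 0.24 (SE 0.17) and 0.12 (SE 0.18). The gap between genotypes for Dusp1 was only 0.00014 on the log2 scale. Egr4 and Gadd45b were lower without overlap, at -0.40 (SE 0.18) and -0.52 (SE 0.24). In the whole list the genotypes did not overlap in 2 higher and 6 lower genes, against 25.4% and 23.0% of all genes.

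**Figure D3:**
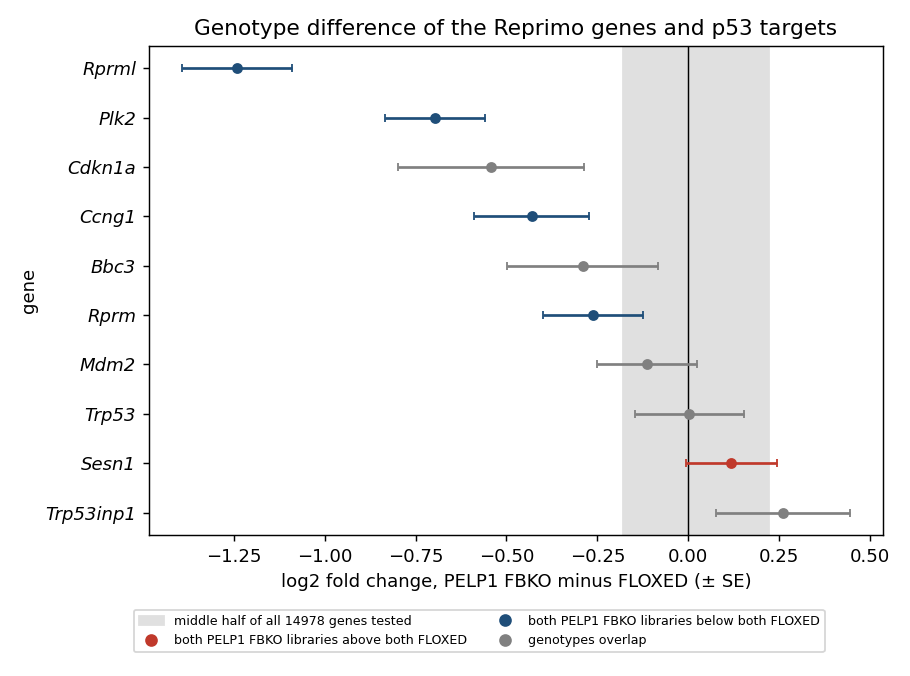
Log2 fold change (PELP1 FBKO minus FLOXED, horizontal axis, bars ± SE) of the 10 genes, coloured by whether the libraries of the genotypes overlap, with a grey band for the central portion of all 14978 genes. Values run from -1.24 for Rprml to 0.26 for Trp53inp1, with 7 negative and 3 positive.

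Per kilobase of exon, the order of mean levels was nearly the same in both genotypes. Rprml led with 70.0 in PELP1 FBKO and 166 in FLOXED (CPM per kb), and Plk2 was next with 61.0 in PELP1 FBKO and 98.9 in FLOXED. In PELP1 FBKO the libraries of Rprml (74.7 and 65.3) and Plk2 (62.5 and 59.6) lay close, while in FLOXED those of Rprml (182 and 149) were above those of Plk2 (95.2 and 103). Ccng1 and Rprm came next, with 36.5 and 36.3 in PELP1 FBKO and 49.2 and 43.6 in FLOXED. Ccng1 and Rprm could not be ordered in either genotype beyond the spread of their libraries. In FLOXED the libraries of Ccng1 (54.3 and 44.2) and Rprm (44.8 and 42.4) overlapped as well. Sesn1, Cdkn1a and Mdm2 lay between 10.8 and 17.8, and Cdkn1a was below Mdm2 in each library but FLOXED 1, where it had 20.5 against 13.2 for Mdm2. Trp53, Bbc3 and Trp53inp1 were lowest, at 5.90, 4.60 and 3.31 in PELP1 FBKO and 5.89, 5.64 and 2.76 in FLOXED.

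The libraries at the extremes were often the same. FLOXED 1 was the highest library for 6 of the 10 genes (Rprml, Rprm, Cdkn1a, Mdm2, Ccng1 and Bbc3), and it was the highest for 32.7% of all genes tested. PELP1 FBKO 1 was the lowest for 6 of the 10 (Rprm, Trp53, Cdkn1a, Mdm2, Ccng1 and Bbc3), against 26.2% of all genes. FLOXED 1 was also the shallowest library, with 47.7% of its alignments not unique against 38.5% to 41.5% in the others, and the part of this in the gene levels was not tested.

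Other genes that p53 is known to induce were counted from a list of 32, of which 31 passed the filter on low counts and Gdf15 did not. Their median log2 fold change was -0.058, with 13 positive and 18 negative, beside 0.00015 over all genes. By edgeR 0 passed the adjusted threshold. At an unadjusted p under 0.05 there were 1 higher and 3 lower, against 10.1% and 5.55% of all genes. DESeq2 called 1 higher and 0 lower, against 2.20% and 0.895% of all genes it tested. The genotypes did not overlap in 7 higher and 7 lower, 14 of 31, close to the 48.4% of all genes.

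The higher gene was Cd82, a tetraspanin known as a metastasis suppressor, with 33.8 and 39.2 CPM in PELP1 FBKO against 16.2 and 21.9 CPM in FLOXED. Its log2 fold change was 0.93 (SE 0.19, edgeR adjusted p = 0.0864). The lower genes were Bax, Psrc1 and Pmaip1. Bax, the pore-forming apoptosis gene, had 37.9 and 39.0 CPM in PELP1 FBKO and 70.6 and 46.1 CPM in FLOXED, a log2 fold change of -0.60 (SE 0.20, edgeR adjusted p = 0.212). Like Cdkn1a it stood highest in FLOXED 1. Pmaip1, which encodes the BH3-only protein Noxa, had 3.85 and 8.76 CPM in PELP1 FBKO and 13.5 and 10.5 CPM in FLOXED, and its log2 fold change was -0.92 (SE 0.35, edgeR adjusted p = 0.265). Psrc1, a microtubule-associated gene, had -0.78 (SE 0.28, edgeR adjusted p = 0.237). FLOXED 1 was the highest library for 13 of the 31 genes (41.9%), and PELP1 FBKO 1 was the lowest for 18 (58.1%). The list's median depended on single libraries, at 0.090 without FLOXED 1 and -0.19 without PELP1 FBKO 2.

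**Figure D4:**
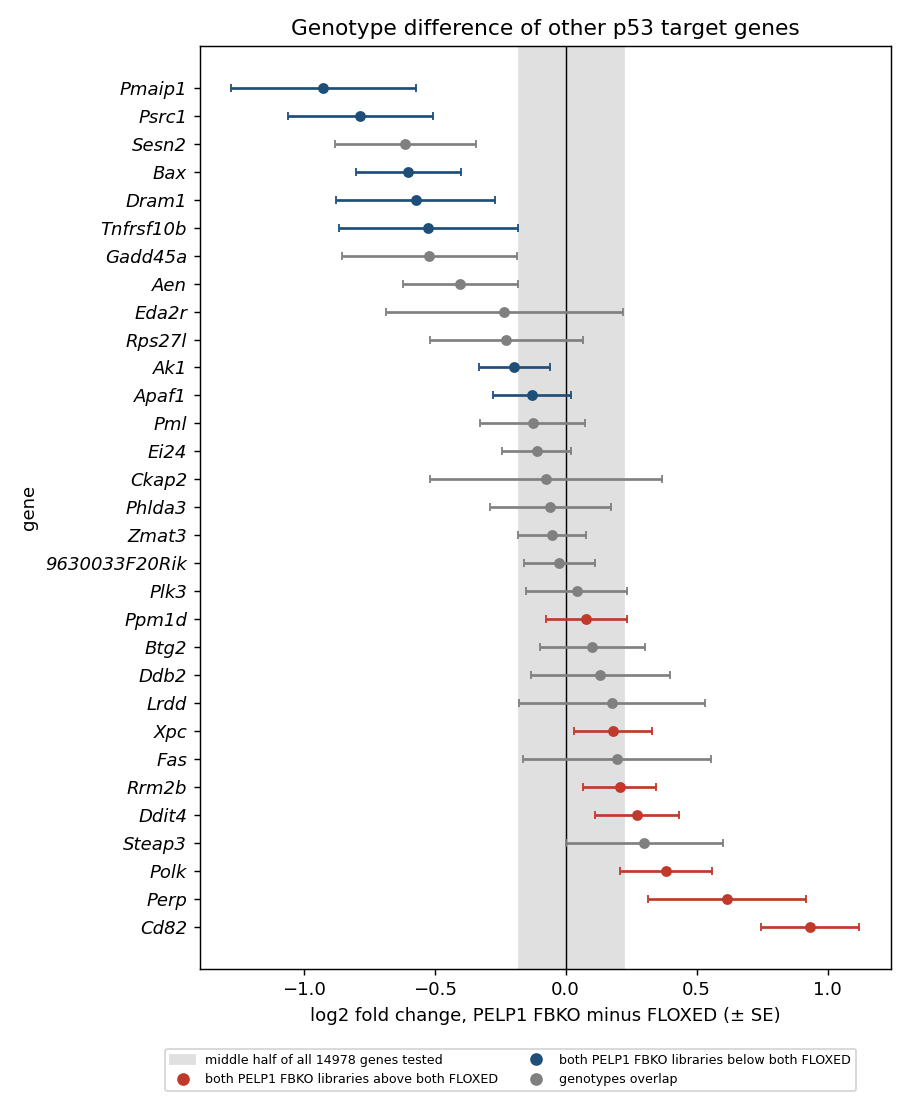
Log2 fold change (PELP1 FBKO minus FLOXED, horizontal axis, bars ± SE) of the 31 tested p53 targets outside the set, coloured as for the 10 genes, with the same grey band. They spread on both sides of 0, from -0.92 for Pmaip1 to 0.93 for Cd82, and symbols are those of the deposited files.

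Regulators and partners of p53 had a median log2 fold change of 0.038 over 25 tested genes, 14 positive and 11 negative. By edgeR 0 passed, and DESeq2 called 1, which was higher, against 2.20% of all genes higher. At an unadjusted p under 0.05, 3 of the 25 were higher, near the 10.1% of all genes, and 0 were lower. The gene that DESeq2 called was Trp53bp2, which encodes the p53-binding protein ASPP2, a partner that steers p53 toward apoptosis genes. It had 52.2 and 45.2 CPM in PELP1 FBKO, against 26.6 and 30.5 CPM in FLOXED, a log2 fold change of 0.77 (SE 0.15, edgeR adjusted p = 0.0828). The family members Trp73 and Trp63 were the other two, both at low levels, at 0.67 (SE 0.23, edgeR adjusted p = 0.229) and 0.78 (SE 0.31, edgeR adjusted p = 0.289).

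A list of mitotic entry genes, on which Reprimo is known to act, and of proliferation genes was mostly low. Of 14 listed, 12 were tested and Ccnb1 and Cdc25c were too low. Wee1, Cdc25b and Cdc25a, regulators of Cdk1 and related kinases, had between 9.74 and 21.7 CPM, and the other 9 tested had at most 4.24 CPM in any library. Their median log2 fold change was -0.36, with 3 positive and 9 negative. By edgeR 0 passed, and by DESeq2 0, where DESeq2 called 3.09% of all genes it tested. An unadjusted p under 0.05 was reached by 3 genes, all lower in PELP1 FBKO (Top2a, Mki67 and Aurkb), and by 0 higher ones, against 5.55% of all genes lower and 10.1% higher. Top2a, a topoisomerase of dividing cells, had 0.634 and 1.76 CPM in PELP1 FBKO against 2.79 and 3.64 CPM in FLOXED (edgeR adjusted p = 0.198). The proliferation marker Mki67 had 1.90 and 2.55 CPM in PELP1 FBKO against 3.76 and 4.24 CPM in FLOXED (edgeR adjusted p = 0.215). Aurkb, a kinase of chromosome segregation, had 0.227 and 0.392 CPM in PELP1 FBKO against 0.969 and 0.599 CPM in FLOXED, from at most 17 reads in a library (edgeR adjusted p = 0.313). Cdk1, the kinase of mitotic entry, did not reach that threshold, with 0.498 and 0.930 CPM in PELP1 FBKO and 2.22 and 1.01 CPM in FLOXED. Wee1 was level, at a log2 fold change of 0.0030 (SE 0.16).

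Among 12 paralogs of the set or BH3-only relatives of Bbc3, 8 had a positive and 4 a negative log2 fold change. Bmf, a BH3-only gene, was higher, with 4.67 and 5.48 CPM in PELP1 FBKO against 1.71 and 2.12 CPM in FLOXED, a log2 fold change of 1.40 (SE 0.28, edgeR adjusted p = 0.0851). It was the 1 gene of this list that DESeq2 called, where DESeq2 called 3.09% of all genes it tested. Cdkn1b and Cdkn1c, relatives of Cdkn1a, were on the higher side at 0.31 (SE 0.14) and 0.55 (SE 0.29). Sesn2, the stress-induced sestrin, had 15.5 and 23.9 CPM in PELP1 FBKO and 36.9 and 23.5 CPM in FLOXED, highest in FLOXED 1, at -0.61 (SE 0.27). Sesn3 was at 0.25 (SE 0.17), Ccng2 at -0.17 (SE 0.16), Mdm4 at 0.16 (SE 0.19), Bcl2l11 at 0.21 (SE 0.19) and Hrk at -0.080 (SE 0.25).

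Cell type markers were set beside these genes. In bulk tissue, fewer cells of a type and less RNA per cell cannot be told apart. All 7 CA1 pyramidal cell markers had negative log2 fold changes, with a median of -0.69, and their summed level was 572 and 483 CPM in PELP1 FBKO, against 733 and 871 CPM in FLOXED. Of these 7, 6 were lower at an unadjusted p under 0.05 and 5 by DESeq2, against 5.55% and 0.895% of all genes. All 10 astrocyte and all 10 oligodendrocyte markers had positive values, with medians of 0.50 and 0.84. At an unadjusted p under 0.05, 6 astrocyte and 9 oligodendrocyte markers were higher, against 10.1% of all genes. DESeq2 called 4 and 7 of them higher, against 2.20% of all genes. The summed oligodendrocyte level was 5774 and 6187 CPM in PELP1 FBKO, against 2898 and 3710 CPM in FLOXED. The 9 microglial and the 9 endothelial and mural markers were positive as well, with medians of 0.49 and 0.50. Of these, 3 and 5 were higher at an unadjusted p under 0.05, and 2 and 1 by DESeq2. Excitatory neuron markers had a median of -0.35, with 5 of 6 negative, but summed levels overlapped, at 9271 and 6836 CPM in PELP1 FBKO and 9172 and 9222 CPM in FLOXED. In this list 2 were lower at an unadjusted p under 0.05 and 1 by DESeq2, against 5.55% and 0.895% of all genes. Interneuron markers had a median of 0.39 with 8 of 9 positive, 5 of them higher at an unadjusted p under 0.05 and 3 by DESeq2. Their summed level was 1372 and 1437 CPM in PELP1 FBKO, against 1105 and 1052 CPM in FLOXED. Dentate granule cell markers had 6 of 7 positive with a median of 0.25. At an unadjusted p under 0.05, 3 of them were higher, and 2 by DESeq2, against 10.1% and 2.20% of all genes. CA2 and CA3 markers had 5 of 7 positive with a median of 0.074, and 1 was higher at that unadjusted threshold and 0 by DESeq2. Thalamic markers had 5 of 6 positive with a median of 0.51, and 3 were higher at an unadjusted p under 0.05 and 0 by DESeq2. A mixed list of cortical layer markers, named for upper and middle layers, had 4 of 6 positive with a median of 0.38. In that list 2 were higher at an unadjusted p under 0.05 and 0 by DESeq2. The negative members of that list were Etv1 (-0.071) and Fezf2 (-0.20), which deep layers express as well. Among the neuronal lists, medians were thus negative for CA1 pyramidal cells and excitatory neurons and positive for the others. Markers of the deep cortical layers, where Rprm is known to be expressed, had a median of 0.31 with 6 of 7 positive, and their sum overlapped between genotypes (404 and 363 CPM in PELP1 FBKO, 486 and 360 CPM in FLOXED). Among these deep layer markers 2 were higher at an unadjusted p under 0.05 and 1 by DESeq2. Of 8 choroid plexus markers 5 were positive, and Ttr, the gene for transthyretin, had 21.4 and 33.9 CPM in PELP1 FBKO, against 324 and 67.5 CPM in FLOXED, highest in FLOXED 1. No listed marker that the files hold was at 0 reads in all libraries. The part of cell composition in the differences of Rprml, Plk2 and the other genes was not tested.

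**Figure D5:**
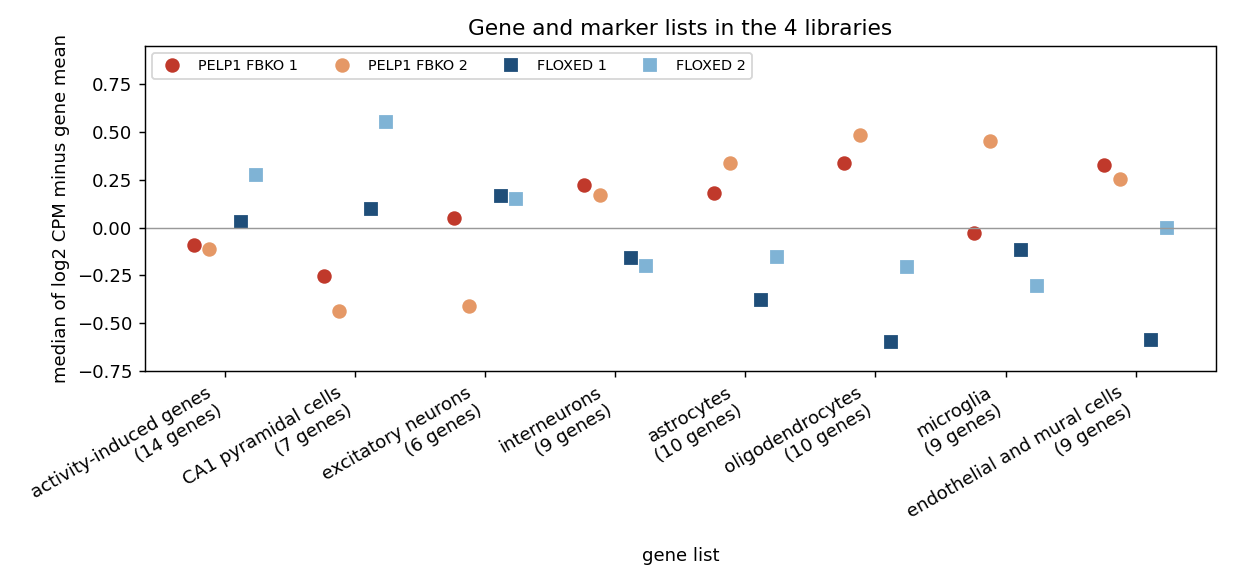
Median over each list of log2 CPM minus the gene's mean (vertical axis), by list (horizontal axis), with circles for PELP1 FBKO and squares for FLOXED. CA1 and activity-induced lists are lower in both PELP1 FBKO libraries, and astrocyte and oligodendrocyte lists are higher in both.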

How the data were processed

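Hippocampal RNA was sequenced as 50-base single reads from TruSeq libraries, per the labels' protocols. The authors deposited raw read counts per gene symbol, made with CASAVA 1.8.2, TopHat2 2.0.8b and HTSeq on mm9, per the submitters' processing notes. The series text names a human build, but the symbols are mouse. The sources used here do not give the HTSeq version, its strand setting or the annotation. HTSeq's summary rows were left out: 14.7% to 15.7% of uniquely placed reads lay in no gene and about 1% were ambiguous (0.972% to 1.05%).

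Counts were tested with edgeR 4.0.16 in R 4.3.3 (TMM, filterByExpr, quasi-likelihood F test of genotype, Benjamini-Hochberg over 14978 genes). Standard errors come from the F statistic. DESeq2 1.42.0, limma-voom (limma 3.58.1), RLE factors, other filters, a replicate block and leaving out each library were alternatives, and the code was tested on simulated data. Replicates differed beyond sampling noise (chi-square per degree of freedom 17.4 in PELP1 FBKO and 23.3 in FLOXED). Each library was treated as 1 sample. The excess does not show whether the libraries came from different animals, since library preparation can add to it as well.

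Centred patterns used log2 CPM with a prior count of 0.5. Exon lengths came from GENCODE vM21 and promoters from RefSeq, both on GRCm38, a newer build than mm9. The members, lists and tests were chosen with earlier results of these data known. The genes named are the members, the 5 genes nearest to Rprml and to Rprm, up to 4 genes per list by smallest p, the paralogs and Pelp1. Others named in the text were chosen after their values were seen.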

Additional observations from a re-analysis of the deposited data

How the results depend on the processing

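The number of genes past an adjusted p of 0.05 depended strongly on the method. It was 0 by edgeR, 17 with RLE size factors, 43 with at least 50 reads in every library, 359 with no filter on low counts, 449 by DESeq2 and 0 by limma-voom. With the replicate number as a block it was 566. Deviations of same-numbered libraries were only weakly related (correlation -0.11). With the pairing crossed, a choice made after seeing the data, the block gave 314. Nothing in the labels says that a number marks a shared animal or day. Leaving out 1 library gave between 0 (without FLOXED 1) and 598 genes (without PELP1 FBKO 2). Of the other p53 targets, 0 passed in the reported test, 1 by DESeq2, 1 with no filter, 2 with the replicate block, and between 0 and 5 when 1 library was left out. Their median log2 fold change lay between -0.19 and 0.090 in those fits. The causes were not tested.

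For the 10 genes and that median, all 66 log2 fold changes over 6 settings that kept every library, the replicate block included, moved by less than the spread between replicates. Leaving out 1 library moved Cdkn1a to between -0.93 and -0.041, Mdm2 to between -0.24 and -0.013 and Sesn1 to between 0.048 and 0.17. Ranges were -0.38 to -0.17 for Rprm, -0.058 to 0.048 for Trp53, -0.58 to -0.28 for Ccng1, -0.49 to -0.088 for Bbc3 and 0.10 to 0.41 for Trp53inp1. With 2 libraries per genotype, differences of the size seen in Rprm or Mdm2 were not resolved. A gene with 0 reads could stand at up to 0.171 CPM in the shallowest library, taking 3 reads as the floor, which covers counting error only.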
